A study of Mus musculus with 1152 samples.

Results

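Among single microglia from the cortex of 5xFAD mice, the cells that carried reads of several disease-associated genes were compared with the cells that carried almost none. The members were chosen by their reads in a panel of 8 genes (Cst7, Clec7a, Itgax, Spp1, Lpl, Axl, Igf1 and Gpnmb): a cell with reads in 3 or more panel genes was placed in the disease-associated class and a cell with reads in 0 or 1 in the class of other cells. Of 190 sorted wells of this group, 172 passed, each with 500 or more genes, 53000 or more gene reads and a mitochondrial share no higher than 20%, out of 939 such cells among 1140 cell wells of the whole series. The classes held 51 disease-associated and 104 other cells, and the 17 cells with reads in 2 panel genes stood between them and entered neither.

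The study sequenced single microglia with Smart-seq2, a full-length protocol that makes 1 library per sorted cell, from wild-type and 5xFAD mice in 3 brain regions (cortex, hippocampus and cerebellum). All animals are labelled C57BL/6J, no treatment is named, and no age is given in the sources used here. 5xFAD mice carry human transgenes, APP among them, with familial Alzheimer's disease mutations, driven by the neuronal Thy1 promoter, so the microglia themselves are not the cells in which the transgenes are made to be expressed. The cells were stained for CD11b, CD45, Ly6C, Ly6G and CD206 and sorted into 384-well plates, and the 4 replicate mice of 5xFAD cortex shared plate 210, so both classes of a mouse came from the same plate, sort and library preparation.

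Microglia are the resident macrophages of the brain. Around amyloid deposits in mouse models they leave the surveying state marked by P2ry12, Tmem119 and Cx3cr1 and take up a disease-associated state, first described from single-cell profiles, with high Apoe, Cst7, Lpl and lysosomal genes. Entry into the full state depends on the lipid-sensing receptor Trem2 and its signalling adaptor Tyrobp, and both belong to the pathway that links microglia to inherited Alzheimer's disease risk.

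Panel genes were spread unevenly over the cells. In mouse 1, 9 of 40 cells were disease-associated, in mouse 2 it was 15 of 43, in mouse 3 it was 11 of 45 and in mouse 4 it was 16 of 44. The share was 29.5% ± 7.09 (SD, n = 4 mice) and ran from 22.5% to 36.4%, and 63 cells had no panel gene at all. Every mouse therefore gave cells to both classes, and no mouse gave the disease-associated class fewer than 9. By the same rule 1 of 133 wild-type cortex cells was disease-associated, on another plate, and 12 of 137 cells of wild-type cerebellum, which shared the plate of 5xFAD cortex.

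**Figure D1:**
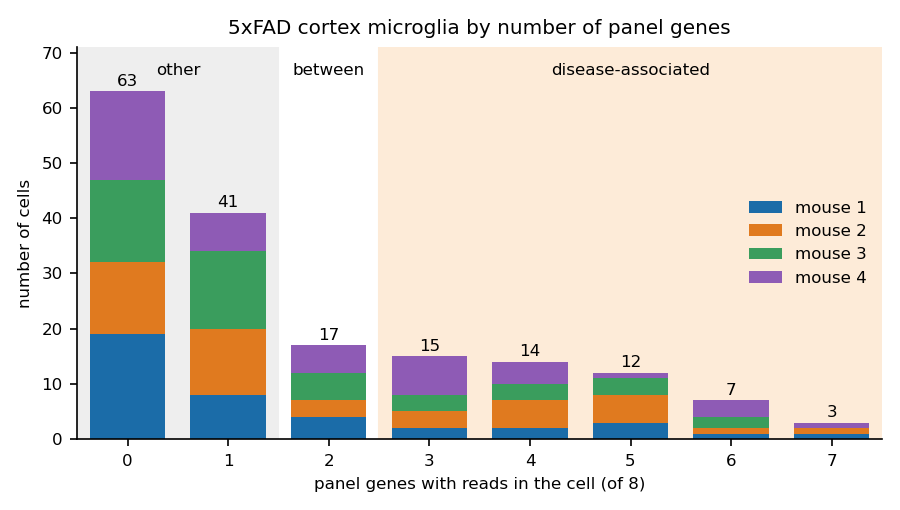
Number of 5xFAD cortex cells (vertical axis) by the number of panel genes with reads in the cell (horizontal axis), stacked by mouse; shading marks the classes. The count falls from 63 cells with no panel gene to 17 with 2, and 15, 14, 12, 7 and 3 cells had 3, 4, 5, 6 and 7.

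The panel values chose the cells and are given as a description only. Clec7a, the beta-glucan receptor Dectin-1, had reads in 46 of 51 disease-associated cells and in 8 of 104 other cells. Axl, a receptor tyrosine kinase that binds bridging molecules on dying cells, had reads in 45 and 9 cells, and Cst7, which encodes the cathepsin inhibitor cystatin F, in 43 and 11. These 3 genes carried most of the class: Clec7a and Axl occurred together in 40 of its 51 cells and Cst7 and Clec7a in 38.

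Lpl (lipoprotein lipase) had reads in 33 disease-associated and 8 other cells, and Itgax (the integrin CD11c) in 32 and 4. The secreted factors were rarer. Igf1 had reads in 16 disease-associated cells, Spp1 (osteopontin) in 8, and neither had a read in any of the 104 other cells. By the class rule no other cell had reads in more than 1 panel gene, so no limit is drawn from this absence. Gpnmb had reads in 1 cell of each class, so it chose almost no cell. All 16 cells with Igf1 also had Cst7 and Clec7a, and all 8 with Spp1 had Cst7.

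Of 12 wells left without a cell, 3 had reads in 1 panel gene and none in more. The gene was Cst7 each time, with 3 reads in all. Disease-associated cells with reads of Cst7 held a median of 315, but the class rule counted a single read. Expression of the panel per mouse also varied within the class: Cst7 stood at 4731, 1406, 2000 and 895 CPM (a gene's reads relative to all gene reads of the sum, unscaled) in the disease-associated sums of mice 1 to 4. Mouse 1 was highest for Cst7, Lpl (1273 CPM against 415 to 584 in the others) and Igf1 (408 CPM against 41.7 to 109), while Clec7a was lowest there (805 CPM against 1047 to 1133). All 8 panel genes were left out of every test.

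Both classes were microglia by their markers. Of 10 microglial markers (among them P2ry12, Tmem119, Cx3cr1, Sall1, Siglech, Fcrls, Gpr34, Olfml3 and Selplg) a disease-associated cell had reads in a median of 10 and at least 8, and another cell in a median of 10 and at least 9. Of 12 border-macrophage markers, 7 had no read in the disease-associated cells and 9 had none in the other cells, among them Lyve1, Cd163 and F13a1 in both, and no cell of either class had reads in 3 of them. Their summed level was 15.8 to 193 CPM in the disease-associated sums and 3.83 to 75.4 CPM in the other sums, and the leading marker of the first class was Dab2. Monocyte markers summed to 20.7 to 64.1 and 4.62 to 41.7 CPM, with Ly6c2, Fn1 and F10 at 0 in both classes. At least 1 of these 12 markers had reads in 29 of 51 disease-associated and 24 of 104 other cells. Ms4a4c, which led them in the first class, had reads in 9 and 3 cells. It was higher in all 4 mice and was not called (edgeR adjusted p = 0.835). T and NK cell markers summed to at most 19.5 and 47.9 CPM, with the T cell receptor components Cd3e, Cd3g, Trac and Trbc2 at 0 in both. Il7r led them in the other cells, with reads in 15 of 104 cells against 3 of 51. B cell markers summed to 777 to 1110 and 981 to 1400 CPM, led by Ighm, with Ms4a1, Pax5 and Igkc at 0 in both. Ighm had reads in 45 of 51 and 94 of 104 cells and Cd79b in 6 and 30. Ighd had them in 6 and 20 and Cd22 in 15 and 12. Reads in 3 or more of the B cell markers were found in 3 disease-associated and 7 other cells. Neutrophil markers summed to 572 to 835 and 595 to 691 CPM, led by Csf3r (48 and 98 cells), with S100a8 at 0 in both. Oligodendrocyte markers, led by Cnp, summed to 145 to 286 and 115 to 194 CPM. At least 1 of them had reads in 35 of 51 and 53 of 104 cells. Astrocyte markers, led by Slc1a3, summed to 54.1 to 245 and 186 to 323 CPM, with reads in 28 and 56 cells. The part of these marker levels in the results was not tested, beyond leaving out cells with reads in 3 or more markers of any 1 other type. These were 5 disease-associated and 9 other cells.

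Depth was similar in the classes, with medians per mouse of 271620 ± 30020 reads in genes for disease-associated and 264480 ± 13030 for other cells (SD, n = 4 mice), higher in 2 of 4 mice (exact two-sided sign-flip permutation test, p = 0.5). After every cell was thinned to 53000 reads, 2580 ± 266 and 2422 ± 42.8 genes were detected, higher in 3 of 4 mice (exact sign-flip permutation p = 0.375). The difference came to 158.9 genes, and without mouse 2 it was 39.5. Reads in genes per read of the ERCC spike-in RNA, which scales with the RNA content of a cell, were 786 ± 199 and 549 ± 63.5 and higher in all 4 mice (exact sign-flip permutation p = 0.125, the smallest that 4 pairs can give). The mitochondrial share was 2.13% ± 0.612 and 1.52% ± 0.194, higher in 3 of 4 mice (exact sign-flip permutation p = 0.25). The part of RNA content and mitochondrial share in the gene differences was not tested.

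Cells are not replicates, so raw counts were summed over the cells of a class within each mouse, which gave 8 sums: 2639857 to 4695591 reads for disease-associated and 6181201 to 7313192 for other cells. edgeR's quasi-likelihood test with mouse as a block compared the classes for 9705 genes. Per-mouse CPM of tested genes and of regions is given on library sizes scaled by TMM, a normalization for composition (factors of 0.918 to 1.07 in cortex), while the panel, marker, single-cell and panel-step CPM is unscaled. A gene was called at a Benjamini-Hochberg adjusted p of at most 0.05. Of these, 18 genes were called (0.185% of those tested), 14 higher (0.144%) and 4 lower (0.0412%) in disease-associated cells. All 18 differed in the same direction in all 4 mice, with no overlap between the classes, and 712 genes had an unadjusted p under 0.05. The calls rest on few animals: 7 genes were called without mouse 1, 2 without mouse 2, 1 without mouse 3 and 2 without mouse 4, and Apoe was the gene called each time. Without the 5 disease-associated and 9 other cells that had reads in 3 or more markers of 1 other cell type, 9 genes were called, all among the 18. DESeq2 on the same sums called 558 genes, 243 higher and 315 lower, limma with voom called 110, and all 18 were among both.

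The median log2 difference of all genes tested was -0.32, and it depended on the level: -0.88 for 2435 genes at or under a mean log2 CPM of 4, -0.38 for the 4402 genes above that up to 6, and 0.25 for the 96 genes above 10. A list's median is therefore given with its counts, and 7.38% of all genes tested were higher and 12.1% lower in all 4 mice, 3.7% higher and 4.66% lower with no overlap. In these summed libraries, more cells of a class with reads and more RNA per cell raise the level alike, and the share of cells with reads is given where it separates them in part.

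The smallest adjusted p belonged to Apoe (chromosome 7: 19696244 to 19701310, GRCm38.p6), the main lipid-carrying apolipoprotein of the brain. Its level in disease-associated cells was 19340, 17440, 11400 and 10730 CPM in mice 1 to 4, and in other cells of the same mice 527, 654, 455 and 316 CPM. The lowest disease-associated sum was far above the highest other sum, and mice 1 and 2 were highest in both classes. The log2 difference was 4.92 ± 0.14 (SE, n = 4 mice), a 30.2-fold rise, with an edgeR adjusted p of 3.09e-05. Reads of Apoe were found in 48 of 51 disease-associated and 67 of 104 other cells, and the median cell held 6903 CPM in the first class and 6.09 CPM in the second. So most cells of both classes had reads of Apoe, but the median other cell, in a class with a median of 262907 gene reads, held few. Share of expressing cells and amount per cell are therefore not told apart by detection. The upper quartile of other cells was 583 CPM, under the lower quartile of 1350 CPM of disease-associated cells.

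Secreted chemokines and the enzyme lysozyme rose with it. Ccl6 (chromosome 11: 83587886 to 83593087), a chemokine that attracts myeloid cells, stood at 2282, 812, 1429 and 822 CPM in disease-associated cells and at 165, 62.8, 145 and 151 CPM in other cells. The classes did not overlap, and the log2 difference was 3.31 ± 0.27 (edgeR adjusted p = 0.0252). Ccl3 (chromosome 11: 83647843 to 83649378), also called MIP-1 alpha, stood at 360, 705, 569 and 308 CPM against 31.7, 10.9, 26.2 and 10.8 CPM. Its log2 difference was 4.68 ± 0.47 (edgeR adjusted p = 0.026), and 38 of 51 against 21 of 104 cells had reads. Lyz2 (chromosome 10: 117277541 to 117282272), a lysozyme of macrophages with a near-identical neighbour in Lyz1 that could share its reads, stood at 4578, 2283, 2739 and 2551 CPM against 542, 523, 848 and 468 CPM, a log2 difference of 2.33 ± 0.23 (edgeR adjusted p = 0.026). Ccl6 and Lyz2 were highest in the disease-associated sum of mouse 1, as Apoe was, while Ccl3 was highest in that of mouse 2.

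Ank (chromosome 15: 27466677 to 27594909), which encodes a membrane exporter of pyrophosphate and other small anions, was the other gene of near 30-fold size. Disease-associated cells held 1619, 912, 1418 and 769 CPM and other cells 25.1, 101, 38.8 and 24.5 CPM. The log2 difference was 4.86 ± 0.50 (edgeR adjusted p = 0.026), and 39 of 51 against 18 of 104 cells had reads, so both the share of cells with reads and the sum were higher.

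Lysosomal and endosomal genes made up the next group, with smaller differences in genes that had reads in every disease-associated cell and in 89 (Cd63) to 104 of the 104 other cells. Ctsd (chromosome 7: 142375910 to 142387827), an aspartic protease of the lysosome, stood at 45020, 23340, 28680 and 20900 CPM in disease-associated cells and at 10930, 11740, 11060 and 9445 CPM in other cells. Every cell of both classes had reads, and the sums of mouse 1 were the farthest apart. The log2 difference was 1.39 ± 0.17 (edgeR adjusted p = 0.0444). Ctsz (chromosome 2: 174427494 to 174439039), a cathepsin with carboxypeptidase activity, stood at 9316, 6287, 7444 and 6847 CPM against 2928, 3021, 2933 and 2854 CPM, so the other cells of the 4 mice hardly differed. Its log2 difference was 1.33 ± 0.12 (edgeR adjusted p = 0.026).

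Ctsa (chromosome 2: 164832872 to 164841032), a carboxypeptidase that also protects beta-galactosidase and neuraminidase, rose by 0.86 ± 0.11 on the log2 scale (edgeR adjusted p = 0.0477), from 1934 to 2717 CPM to 3794 to 4658 CPM. Cd68 (chromosome 11: 69664213 to 69666170), a glycoprotein of macrophage lysosomes, rose by 1.10 ± 0.13 (edgeR adjusted p = 0.0444), from 1293 to 1639 CPM to 2715 to 3679 CPM. The tetraspanin Cd63 (chromosome 10: 128896231 to 128912822), found in late endosomes and secreted vesicles, stood at 489 to 556 CPM against 119 to 155 CPM, a log2 difference of 1.94 ± 0.21 (edgeR adjusted p = 0.0316). Its relative Cd9 (chromosome 6: 125460266 to 125494760), at the cell surface, stood at 2339, 2802, 2853 and 2770 CPM against 1113, 1390, 1301 and 1458 CPM, a log2 difference of 1.04 ± 0.12 (edgeR adjusted p = 0.0325). Both tetraspanins were lower in mouse 1 than in the other mice within the disease-associated class, unlike Ctsd, Ctsz and Cd68, which were highest there.

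Of 45 lysosomal genes tested from a list of 46, 5 were called, all higher, 27 were higher in all 4 mice and 4 lower in all 4, with a median log2 difference of 0.56. Ctsb, a cysteine protease, stood at 22640, 12040, 12710 and 10220 CPM against 4699, 5423, 5581 and 4534 CPM. Its log2 difference of 1.44 ± 0.20 missed the threshold (edgeR adjusted p = 0.0606). The edgeR adjusted p was 0.0344 without mouse 1, 0.202 without mouse 2, 0.303 without mouse 3 and 0.233 without mouse 4. In Ctsb the sum of mouse 1 lay far above the 3 others, which were close together. Npc2, which carries cholesterol out of the lysosome, stood at 1241 to 2000 CPM against 642 to 953 CPM (log2 difference 0.97 ± 0.20, edgeR adjusted p = 0.214). The list was not uniform: the regulator Tfeb, picked out after its values were seen, had a log2 difference of -3.63, lower in all 4 mice, and was not called (edgeR adjusted p = 0.773).

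Many lysosomal genes carry in their promoters the E-box TCACGTG, to which factors of the MiT/TFE family bind, so the promoters of the called genes were searched for it on both strands, from 250 bases before to 50 after the annotated start (RefSeq sequences, GRCm38.p6). A gene counted if any start listed for it had the motif, which held for 566 (7.65%) of the 7397 tested genes with a promoter in the table, out of 9705 tested. It occurred in 3 of the 15 called genes with a promoter, 2 higher (Ctsa and Ctsd) and 1 lower (P2ry12); Tmem119 had no entry. These windows are shown because they hold the motif in genes that moved in both directions; capitals mark TCACGTG or its reverse complement CACGTGA, which overlap where TCACGTGA is read, and each runs 5′ to 3′ on the strand of its gene.
Ctsa, chr2:164833740-164833804, plus strand: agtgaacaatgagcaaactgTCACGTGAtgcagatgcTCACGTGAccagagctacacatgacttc
Ctsd, nearer the start, chr7:142387899-142387946, minus strand: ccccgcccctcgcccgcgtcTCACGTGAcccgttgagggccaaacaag
Ctsd, farther from the start, chr7:142388046-142388077, minus strand: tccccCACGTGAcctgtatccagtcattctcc
P2ry12, chr3:59263187-59263233, minus strand: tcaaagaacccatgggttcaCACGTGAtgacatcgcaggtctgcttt
The first match began 13 bases before the downstream of the 2 starts listed for Ctsa (chromosome 2: 164833773, inside the gene's span), 99 and 245 bases before the start of Ctsd and 228 bases before that of P2ry12. Of the 36 tested lysosomal genes with a promoter, 11 held the motif (30.6%), beside 7.65% of tested genes and 4.29% of all 27025 genes with a promoter. A match is a stretch of letters and was not shown to be a bound site.

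Among lipid genes Apoe was the single call. Of 26 tested, 1 was called (Apoe), 11 were higher in all 4 mice and 1 was lower in all 4, with a median of 0.82. Ch25h, which makes 25-hydroxycholesterol from cholesterol, stood at 250, 189, 283 and 45.9 CPM in disease-associated cells and had no read in any other cell. Its 2190 reads came from 17 of 51 disease-associated cells, 21.5% of them from 1 cell, against 0 reads in 104 other cells. The reads of 1 cell are not independent, so no smallest fold is given. A count of 0 in 104 cells allows a share of cells with reads of up to 2.88%. The class difference was not called (edgeR adjusted p = 0.0568). Nceh1, a hydrolase of cholesterol esters, stood at 64.3, 104, 200 and 239 CPM against 10.4, 2.56, 36.5 and 42.8 CPM, with no overlap (log2 difference 3.13 ± 0.67, edgeR adjusted p = 0.239).

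Fth1 (chromosome 19: 9980600 to 9985111), the heavy chain of the iron-storage protein ferritin, also rose. Its level was 3553, 2359, 2843 and 2363 CPM in disease-associated and 957, 1051, 1246 and 998 CPM in other cells, a log2 difference of 1.37 ± 0.16 (edgeR adjusted p = 0.0439). The list of iron genes was mixed: of 12 tested, Fth1 included, 5 were higher and 1 was lower in all 4 mice. The light chain Ftl1 stood at 204 to 362 CPM against 104 to 135 CPM (log2 difference 1.12 ± 0.29, edgeR adjusted p = 0.371), and both ferritin genes have processed copies in the genome that could take or lend reads. Slc40a1 (ferroportin, the iron exporter) lay the other way, at 98.2 to 196 CPM against 308 to 352 CPM (log2 difference -1.17 ± 0.27, edgeR adjusted p = 0.274).

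The 4 genes that fell were 3 homeostatic genes and Fgd2. P2ry12 (chromosome 3: 59216271 to 59262985), the ADP receptor that guides microglial processes, stood at 2948, 2514, 2630 and 4162 CPM in disease-associated cells and at 7626, 7825, 6441 and 7809 CPM in other cells. The highest disease-associated sum, in mouse 4, was still below the lowest other sum. It fell by 1.30 ± 0.13 on the log2 scale (edgeR adjusted p = 0.026), a 2.47-fold drop, yet 50 of 51 disease-associated cells kept reads of it, with a median of 3005 CPM against 7292 CPM. Tmem119 (chromosome 5: 113793729 to 113800396), a membrane protein that marks microglia among brain macrophages, stood at 1948, 2082, 1979 and 1845 CPM against 4060, 4561, 4515 and 4471 CPM. The spread between mice was small in both classes, and it fell by 1.16 ± 0.11 (edgeR adjusted p = 0.026).

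P2ry13 (chromosome 3: 59207892 to 59210882), the neighbouring ADP receptor, stood at 2630, 2109, 1782 and 1990 CPM against 4815, 4250, 3681 and 3980 CPM and fell by 0.98 ± 0.10 (edgeR adjusted p = 0.0263). Both receptors lie within Med12l, which the annotation places on the opposite strand; 7 of the 18 called genes have such a partner, and without a stated strand setting its reads cannot be told apart. Fgd2 (chromosome 17: 29360904 to 29379535), an activator of the GTPase Cdc42, stood at 300, 449, 316 and 489 CPM against 695, 1453, 1017 and 1079 CPM. It fell by 1.43 ± 0.18 (edgeR adjusted p = 0.0477), and reads were found in 39 of 51 against 99 of 104 cells, so fewer cells had reads as well.

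**Figure D2:**
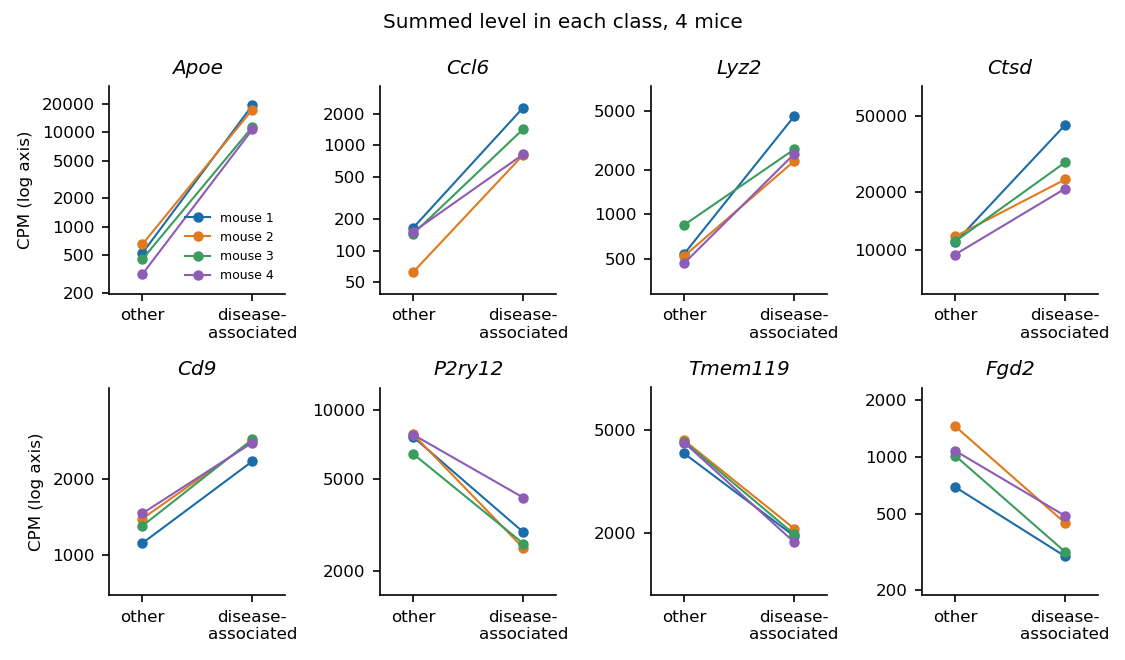
Level of 8 called genes (CPM of the class sum, log axis) in other and disease-associated cells; each line joins the classes of 1 mouse. Lines of the 5 higher genes rise and those of the 3 lower genes fall in all 4 mice, and Apoe spans from 316 CPM to 19340 CPM.

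Across the 36 homeostatic genes tested, 3 were called lower, 25 were lower and 1 (Cst3, cystatin C) was higher in all 4 mice, and the median was -0.54, beside -0.32 for all genes. Cx3cr1, the fractalkine receptor, stood at 4811, 3857, 4817 and 5201 CPM against 6973, 6276, 6529 and 6762 CPM. The classes did not overlap, but the log2 difference of -0.51 ± 0.10 was not called (edgeR adjusted p = 0.169). Selplg, the ligand of P-selectin, stood at 3056 to 4993 CPM against 6065 to 7149 CPM (log2 difference -0.84 ± 0.14, edgeR adjusted p = 0.101). Homeostatic genes thus differed in size, from over 1 log2 unit for P2ry12 and Tmem119 to 0.51 for Cx3cr1.

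**Figure D3:**
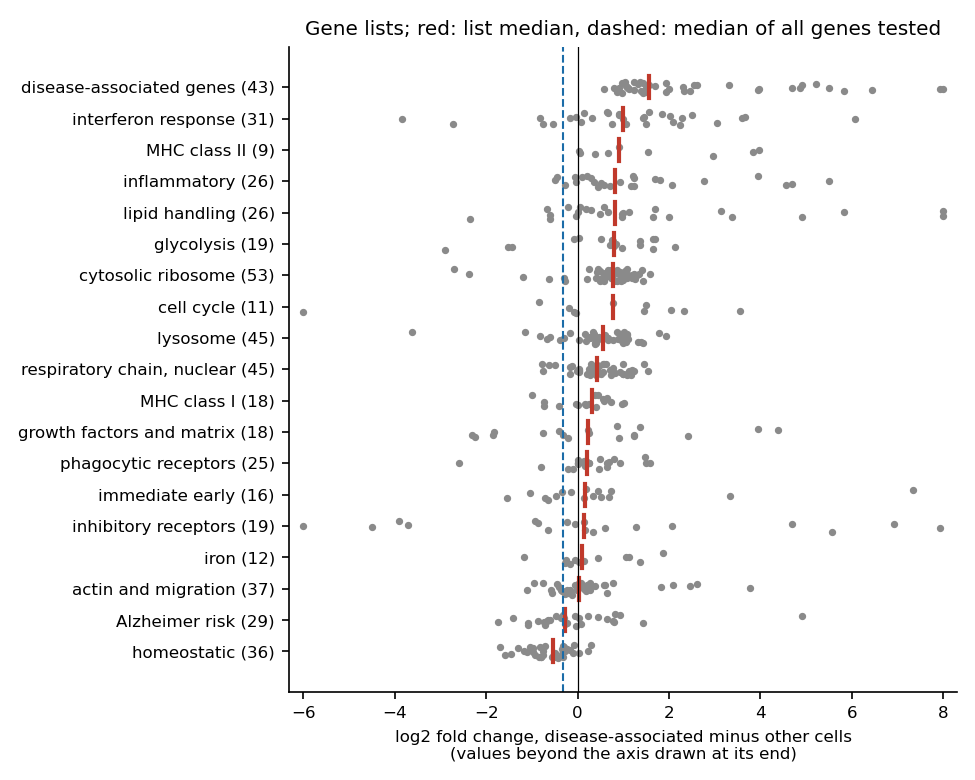
Log2 difference between the classes (horizontal axis) for every tested gene of 19 lists; grey points are genes, red bars list medians, and the dashed line marks the median of all genes tested, -0.32. The list of disease-associated genes lies wholly above 0 with a median of 1.57, and the homeostatic list has the lowest median, -0.54.

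A list of further genes reported for disease-associated microglia, without the panel, had 43 tested members; 13 were called higher, 42 were higher in all 4 mice and none was lower, with a median of 1.57. The list was set with results of these data known and is no independent evidence of direction. Among its members not called, Trem2 stood at 4379, 3423, 3601 and 3976 CPM against 2159, 2293, 1863 and 2568 CPM, a log2 difference of 0.80 ± 0.12 (edgeR adjusted p = 0.0922). Its adaptor Tyrobp stood at 6388, 2776, 2790 and 2646 CPM against 1169, 1200, 1221 and 1155 CPM, a fitted level 2.84-fold higher (edgeR adjusted p = 0.0922). Neither gene overlapped between the classes. In Tyrobp the spread came from mouse 1, whose disease-associated sum stood apart from the other 3.

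Among 25 phagocytic receptors, complement and related genes tested, none was called, 7 were higher and 1 was lower in all 4 mice, with a median of 0.22. Fcer1g, the common signalling chain of Fc receptors, stood at 986 to 1590 CPM against 648 to 807 CPM (log2 difference 0.68 ± 0.16, edgeR adjusted p = 0.274). Stab1, the scavenger receptor stabilin-1, lay in the other direction at 46.2, 168, 37.2 and 83.4 CPM against 427, 480, 398 and 398 CPM. Its log2 difference was -2.60 ± 0.39 (edgeR adjusted p = 0.0807), with reads in 23 of 51 against 91 of 104 cells.

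Inhibitory receptors split. Of 19 tested, none was called, 6 were higher and 4 were lower in all 4 mice. Lilrb4a, an inhibitory receptor of myeloid cells, stood at 124, 104, 140 and 174 CPM against 0 to 1.28 CPM, with reads in 26 of 51 and 4 of 104 cells (edgeR adjusted p = 0.084). Pdcd1, which encodes PD-1, stood at 282, 291, 233 and 228 CPM against 7.95, 69.5, 17.2 and 0.146 CPM, with reads in 21 and 7 cells (edgeR adjusted p = 0.38). Cd33, a sialic acid receptor at a risk locus for Alzheimer's disease, was lower, at 683 to 778 CPM against 1281 to 1519 CPM (log2 difference -0.87 ± 0.14, edgeR adjusted p = 0.0988). For Pdcd1 the disease-associated sums lay close together and the other sums, with reads in 7 cells, far apart.

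Of 26 inflammatory genes tested, 1 was called (Ccl3), 10 were higher and 1 was lower in all 4 mice, and the median was 0.82. Ccl4, the chemokine MIP-1 beta, varied widely within the class: 60.9, 1301, 550 and 238 CPM in disease-associated cells against 10.5, 4.47, 11.9 and 4.67 CPM in other cells (log2 difference 5.50 ± 0.95, edgeR adjusted p = 0.109). Tlr2, a receptor for bacterial lipoproteins and protein aggregates, stood at 867, 718, 1174 and 721 CPM against 160, 284, 473 and 226 CPM (log2 difference 1.69 ± 0.24, edgeR adjusted p = 0.0664). Cd83 stood at 599, 736, 1302 and 651 CPM, above 461 CPM, the highest of the other sums (log2 difference 1.23 ± 0.28, edgeR adjusted p = 0.272). Immediate early genes, which respond quickly to stimulation and to handling of tissue, showed no common direction: of 16 tested none was called, 3 were higher and 2 were lower in all 4 mice, with a median of 0.17. Junb stood at 28.2, 97, 158 and 63.6 CPM against 139, 123, 198 and 64.4 CPM.

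Genes of antigen presentation and the interferon response were counted next. Of 18 class I genes tested, none was called, 8 were higher and none was lower in all 4 mice, with a median of 0.32. B2m, the light chain of class I molecules, stood at 8354, 5543, 6798 and 5693 CPM against 2889, 3748, 3939 and 2493 CPM (log2 difference 1.02 ± 0.17, edgeR adjusted p = 0.0993). The heavy chain H2-D1 stood at 2692 to 3280 CPM against 982 to 2136 CPM (log2 difference 0.97 ± 0.22, edgeR adjusted p = 0.272), though reads of near-identical H2 genes can be split. The class II gene H2-Ab1 was found in 17 of 51 and 11 of 104 cells, at 146, 39.5, 36.8 and 119 CPM against 27.9, 15.8, 7.15 and 0.584 CPM (log2 difference 2.96 ± 1.20, edgeR adjusted p = 0.647). Of 31 interferon response genes tested none was called, and 8 were higher and 1 was lower in all 4 mice, with a median of 1.00; Oasl2 stood at 118 to 217 CPM against 4.85 to 114 CPM (edgeR adjusted p = 0.596).

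Genes of energy metabolism were counted in the same way. Of 19 genes of glycolysis tested, none was called, 11 were higher and 3 were lower in all 4 mice, with a median of 0.79. Aldoa (aldolase) stood at 886, 773, 532 and 702 CPM against 226, 279, 249 and 363 CPM (log2 difference 1.37 ± 0.23, edgeR adjusted p = 0.101). Hif1a, the oxygen-sensitive regulator of these enzymes, stood at 746, 659, 634 and 448 CPM against 162, 183, 219 and 193 CPM (log2 difference 1.70 ± 0.23, edgeR adjusted p = 0.0597). The 3 lower members, picked out after their values were seen, were the hexokinases Hk1, Hk2 and Hk3, with log2 differences of -2.90, -1.52 and -1.43 (edgeR adjusted p = 0.868, 0.544 and 0.446).

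Ribosomal protein genes, 53 tested, had 32 members higher and 1 lower in all 4 mice and a median of 0.77, with none called; Rplp0 stood at 290 to 531 CPM against 116 to 193 CPM (edgeR adjusted p = 0.146). Of 45 nuclear genes of the respiratory chain, 17 were higher and 1 was lower in all 4 mice, none was called, and the median was 0.43; Cox4i1 stood at 275 to 420 CPM against 136 to 180 CPM (edgeR adjusted p = 0.254). Of 14 mitochondrially encoded genes, 12 were higher in all 4 mice and none was lower, with a median of 0.80. The ribosomal RNA mt-Rnr2, named after its values were seen, was called, at 8807, 8529, 12570 and 8903 CPM against 5223, 5007, 5671 and 5341 CPM (log2 difference 0.85 ± 0.11, edgeR adjusted p = 0.0467). Beside these lists stand the higher gene reads per spike-in read, 786 against 549, and the higher mitochondrial share, 2.13% against 1.52%, of the disease-associated cells; their part in the result was not tested.

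Several of the called genes also followed the number of panel genes. Across 0, 1, 2, 3, 4 and 5 to 7 panel genes, Apoe averaged 467 ± 161, 589 ± 277, 1004 ± 652, 2741 ± 1933, 6099 ± 4125 and 23430 ± 5654 CPM (mean of mice ± SD, n = 4). P2ry12 averaged 7764 ± 614, 7510 ± 1139, 5855 ± 1846, 3483 ± 1450, 3130 ± 699 and 2312 ± 467 CPM. Just outside the threshold, the 17 cells with 2 panel genes held 1004 CPM of Apoe and 5855 CPM of P2ry12, and just inside it the 15 cells with 3 held 2741 and 3483 CPM. The order of the means was the same at every step for both genes, but the ranges of neighbouring steps overlapped between mice, except for Apoe between 4 panel genes (1529 to 11550 CPM) and 5 to 7 (18300 to 29000 CPM). Ctsd ran from 10590 ± 1529 to 35430 ± 9132 CPM and Tmem119 from 4862 ± 115 to 1262 ± 286 CPM between the ends. Cx3cr1 did not follow a steady course: it was at 6890 ± 3295 CPM with 3 panel genes, close to 7215 ± 638 CPM with none, and at 2711 ± 835 CPM with 5 to 7. Ccl6 had its highest mean with 4 panel genes, at 1826 ± 2774 CPM, and stood at 1092 ± 366 CPM with 5 to 7. With 4 panel genes the mice ran from 62.9 to 5966 CPM. A single cell gave 23.6% of the Ccl6 reads of the disease-associated class. These levels are a description along the measure that formed the classes, with no test.

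**Figure D4:**
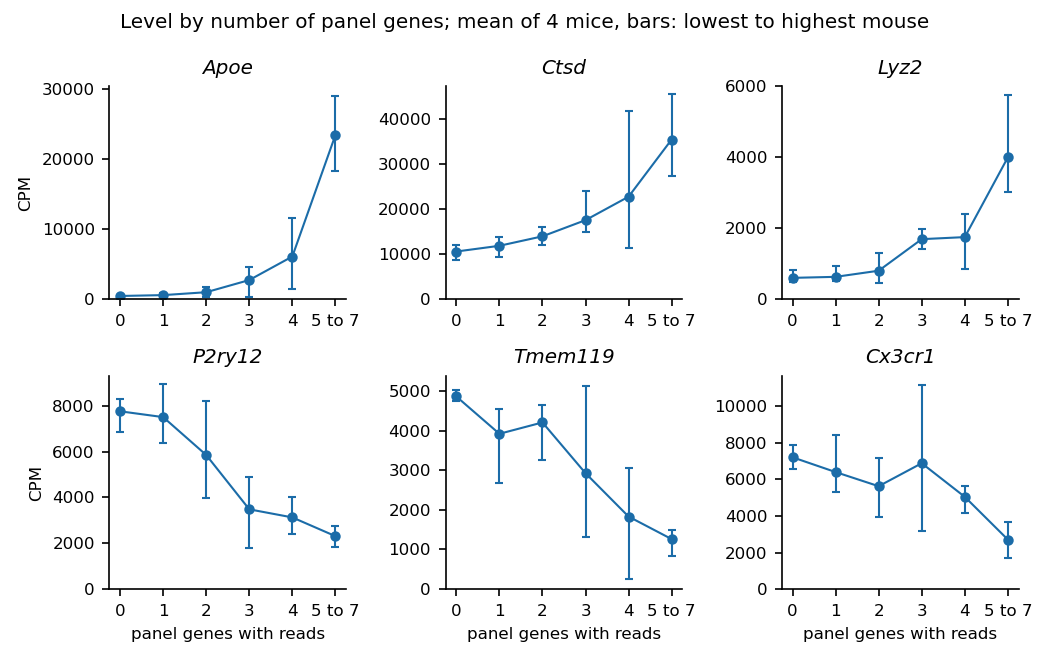
Level of 6 genes (CPM) by the number of panel genes with reads in the cell; points are means of 4 mice and bars run from the lowest to the highest mouse. Apoe, Ctsd and Lyz2 are highest and P2ry12, Tmem119 and Cx3cr1 lowest in cells with 5 to 7 panel genes, where Apoe averages 23430 CPM.

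The same split was made in the other regions of the 5xFAD mice, which the study took from the same animals: 86 disease-associated and 31 other cells in hippocampus and 42 and 110 in cerebellum, 3 mice each, on another plate. In 1 fit over the 20 sums of all 3 regions, edgeR's quasi-likelihood test called 16 of 12992 genes in cortex (0.123%), 22 in hippocampus (0.169%) and 0 in cerebellum (0.0%). The block in this fit was the mouse within its region, so animals shared between regions were not paired. Of the 18 genes called in the fit of cortex alone, 9 were called in cortex, 7 in hippocampus and 0 in cerebellum, and all 18 had the same direction in the other regions. The test of the difference between regions called no gene for hippocampus against cortex (0.0% of 12992, edgeR's quasi-likelihood test, 575 genes at an unadjusted p under 0.05) or for cerebellum against cortex (0.0%, 244 genes). DESeq2 called 760 and 147 genes in these comparisons, so the count depended on the tool.

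The other cells of cerebellum mouse 3 stood apart by markers of another cell type. Of these 42 cells, 23 had reads in 3 or more of 12 neutrophil markers, against at most 2 cells in any other sum of the 3 regions, and the markers, led by Ngp, S100a8, Ltf and S100a9, summed to 33700 CPM with none at 0. Monocyte markers summed to 3960 CPM there and border-macrophage markers to 387 CPM, and in the disease-associated sum of cerebellum mouse 2 they reached 2010 and 1460 CPM. With every cell left out that had reads in 3 or more markers of 1 other type, which took 26 of those 42 cells, edgeR called 18 of 12326 genes in cortex (0.146%), 13 in hippocampus (0.105%) and 3 in cerebellum (0.0243%), and 11, 8 and 3 of these were among the 18. Without cerebellum mouse 3 it called 17 of 13973 genes in cortex (0.122%), 26 in hippocampus (0.186%) and 5 in cerebellum (0.0358%), with 11, 10 and 5 among the 18. Neither change gave a called difference between regions, and both were chosen after seeing the data.

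Apoe differed by 4.92 ± 0.76 in cortex, 4.98 ± 0.98 in hippocampus and 1.53 ± 0.88 in cerebellum on the log2 scale. Its disease-associated level was 24670, 23470 and 16200 CPM in hippocampus and 14260, 2364 and 4008 CPM in cerebellum, where the other cells held 547, 1735 and 3553 CPM. The cerebellum minus cortex difference of -3.38 ± 1.15 was not called (edgeR adjusted p = 1.0, unadjusted p = 0.011). Without the cells holding markers of another type, the other cells of cerebellum held 574, 247 and 458 CPM of Apoe, the difference in cerebellum was 2.53 ± 0.71, and cerebellum minus cortex came to -2.41 ± 0.90 (edgeR adjusted p = 1.0). Without cerebellum mouse 3 these were 2.58 ± 1.06 and -2.32 ± 1.21 (edgeR adjusted p = 1.0). P2ry12 differed by -1.31 ± 0.15, -1.02 ± 0.18 and -1.30 ± 0.18, and its cerebellum minus cortex difference was 0.01 ± 0.23 (edgeR adjusted p = 1.0). For Ccl6 the difference was larger in cortex, 3.31 ± 0.46 against 1.82 ± 0.53 and 1.80 ± 0.51, and neither test of the difference was called (edgeR adjusted p = 0.943 and 1.0).

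**Figure D5:**
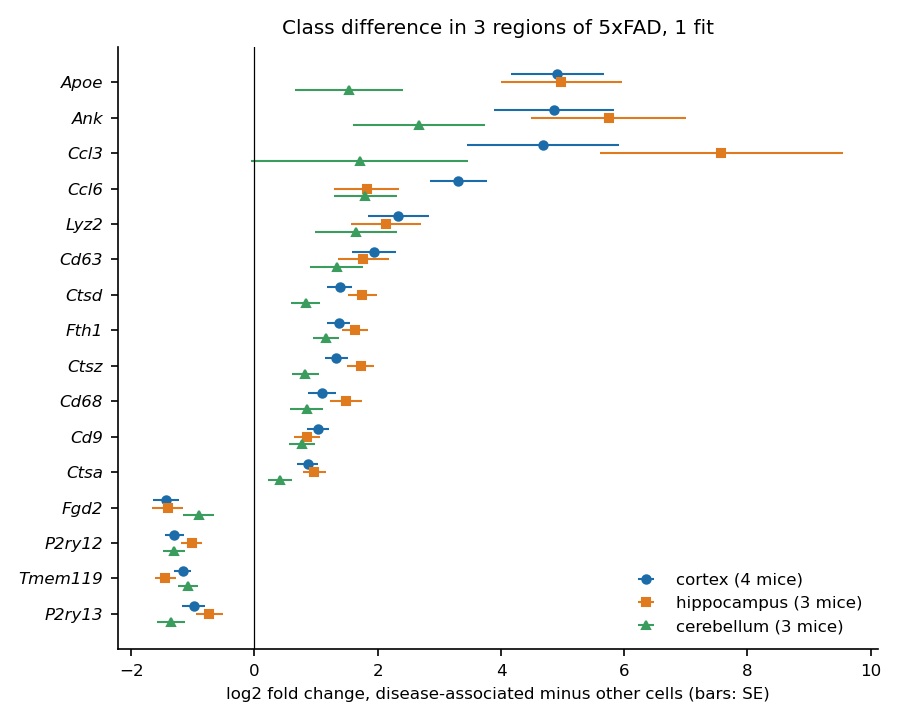
Log2 difference between disease-associated and other cells (horizontal axis, bars are SE) in 3 regions of 5xFAD mice for the 16 named genes called in cortex, from 1 fit. All points of the 12 higher genes lie above 0 and those of the 4 lower genes below it; Apoe lies at 4.92 in cortex and 1.53 in cerebellum.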

How the data were processed

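The submitters' processing notes name STAR 2.5.2b, featureCounts 1.5.1 and the build GRCm38; for annotation and strand setting, nothing is given in the sources used here. The deposited values are raw read counts per gene and well. Some deposited columns held sums over several wells of a plate row, so 96 were recovered by subtraction, with 0 negative among 4673184 recovered values; none was a 5xFAD cortex well. Cells of 5xFAD cortex that passed held 102979 to 385332 reads in genes.

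Counts were summed per mouse and class and tested with edgeR 4.0.16 in R 4.3.3: TMM, filterByExpr, a quasi-likelihood test with mouse as a block, and Benjamini-Hochberg adjustment at 0.05. Both classes of a pair come from the same mouse, which is the source of the pairing. The SE is the log2 difference divided by the square root of F. A single measure per mouse was tested by exact two-sided sign flips in SciPy 1.17.1. DESeq2 1.42.0 and limma 3.58.1 were alternatives, beside other normalizations, filters, class limits, thinned cells and each mouse left out, and the test was checked on simulated counts. With 4 mice and residual df of 3, only the spread between these mice is measured. Intervals and limits for a count of 0 cover counting error only.

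The members and lists were chosen with earlier results of these data known. Named genes were the 12 higher and 12 lower called genes of largest fold (all where fewer passed) with log2 CPM averaging 4 or more, reads in at least 20% of the cells of a class and the same sign in 4 mice, up to 4 members of each list by smallest p, and 9 genes always named; predicted, ribosomal protein, mitochondrial and chromosome 18 genes and pseudogenes were left out of the first group. A called gene and some other items are not reported here.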

Additional observations from a re-analysis of the deposited data

Results flagged for a closer look

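Among 96 groups of 4 values tested, 9 had 1 mouse far from the other 3, and chance marks about 1 group in 20. All groups come from the same 4 mice and are not independent, so this rate does not test the count. Mouse 1, which gave the fewest disease-associated cells (9), was that mouse in 5 of the 9. Its log2 difference was 1.891 for Fth1 (1.167 to 1.244 in the others), 2.45 for Tyrobp (1.192 to 1.21) and 2.268 for Ctsb (1.151 to 1.187). It was 1.217 for the cytoskeletal protein gene Plek (0.6034 to 0.6399) and -2.288 for Junb (-0.3417 to -0.019). Mouse 2 stood apart for Nceh1 at 5.143 (2.443 to 2.587 in the others) and for Csf3r at 0.5569 (0.0212 to 0.0471). Mouse 3 stood apart for the replication gene Mcm6 at 5.459 (0.4355 to 0.7674) and for Il7r at -1.402 (-6.092 to -5.426).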

How the results depend on the processing

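The count of 18 called genes ranged from 1 to 7 when 1 mouse was left out. It was 558 by DESeq2, 110 by limma with voom, 169 by limma on cell means and 59 with no filter on low counts. It was 39 when cells were thinned within the same classes, 49 when they were thinned before classes were formed, 8 with 2 or more panel genes as the limit and 9 without cells holding markers of other types. Without the mouse as replicate block it was 51 (43 higher, 8 lower), and the cause of these shifts was not tested. All 18 were still called by DESeq2 and voom, without the filter, without the block and under both kinds of thinning, and 8 with 2 or more panel genes as the limit. Genes whose class difference differed between hippocampus and cortex numbered 760 by DESeq2 and 6 without the replicate block, and for cerebellum and cortex 147 by DESeq2, against 0 by edgeR with the block. Among 336 alternative values of called named genes, 253 stayed on their side of the threshold, 83 missed it and 0 changed sign. Sign changed for Zfp36 (-0.25 with 4 or more panel genes), Mcm5 (-1.19 with at least 10 reads per panel gene) and Mrc1 (-1.10 in the test as reported, 0.0231 on cell means, -4.01 to 0.97 with 1 mouse left out, and 1.34 against cells with 0 panel genes). Few animals and few cells (9 to 16 disease-associated per mouse) limit low-level genes.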

Other observations

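Growth factor and matrix genes gave no call, though several did not overlap between the classes, and some were also members of lists above. Of 18 growth factor and matrix genes tested, 5 were higher and 4 lower in all 4 mice, with a median log2 difference of 0.24. Serpine2, a secreted inhibitor of thrombin and related proteases, stood at 3122, 1880, 1480 and 1993 CPM in disease-associated cells and at 960, 843, 892 and 793 CPM in other cells (log2 difference 1.23 ± 0.18, edgeR adjusted p = 0.0775). Plaur, the urokinase receptor, stood at 172, 180, 134 and 183 CPM against 30.4, 38.8, 24.6 and 32.3 CPM, with reads in 29 of 51 and 17 of 104 cells (edgeR adjusted p = 0.0993). Slc11a1, a metal transporter of phagosomes counted above in the lysosomal and iron lists, stood at 1012, 1164, 1077 and 968 CPM against 623, 564, 430 and 429 CPM (edgeR adjusted p = 0.0988).

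Of 37 genes of actin and migration tested none was called, 7 were higher and 5 lower in all 4 mice, with a median of 0.03. Capg, an actin-capping protein, stood at 710, 173, 261 and 244 CPM against 77.4, 67.4, 27.9 and 58.7 CPM (edgeR adjusted p = 0.102), and Myo1e, a class I myosin, at 269, 119, 248 and 145 CPM against 17.9, 21.1, 57.2 and 34.9 CPM (edgeR adjusted p = 0.133). Of 29 Alzheimer's disease risk genes tested 1 was called (Apoe, higher), 4 were higher and 5 lower in all 4 mice, with a median of -0.28. Cell cycle genes were sparse: 11 of 30 were tested, none was called and 2 were higher in all 4 mice.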
